A study of Mus musculus with 14 samples.

Results

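The type I interferon response genes are 40 genes, chosen by name as textbook targets and regulators of the interferon pathway. All 40 were present in both deposited tables, among 16821 genes in the first and 16095 in the second, and all 40 passed the filter on low values (a mean deposited value of at least 10). Their RNA was read by sequencing in MYC-driven liver cancers (hepatocellular carcinomas) of the mouse that had been edited with Cas9. Per the labels, Cul3 was targeted in 3 tumours (sgCul3), Keap1 in 3 (sgKeap1), the ETGE motif of NRF2 in 2 (sgNrf2), and GFP, as the control, in 4 (sgGFP). The sgNrf2 tumours had 2 controls of their own (A and B), which the labels give as repeats of sgGFP tumours 2 and 4. KEAP1 and CUL3 are parts of the ubiquitin ligase that holds the transcription factor NRF2 low, KEAP1 binds NRF2 at the ETGE motif, and the study edited all 3 places to activate NRF2. All groups share the MYC driver. The labels name the cell type as hepatocytes, but these are bulk tumours, in which leukocyte, macrophage and erythroid markers were also read. They state no mouse strain, age, sex or promoter, and do not say whether each tumour came from a separate animal, so a p-value here speaks only of the spread among these samples.

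Type I interferons are secreted by cells that sense foreign or displaced nucleic acid. They bind the receptor of IFNAR1 and IFNAR2, whose kinases JAK1 and TYK2 phosphorylate STAT proteins, STAT2 among them. STAT2 and IRF9 are parts of the ISGF3 complex, which binds the interferon-stimulated response element (ISRE) in promoters and switches on antiviral genes. Among the products are further sensors and IRF7, which amplify the response, and proteins that block viral entry, degrade viral RNA or prepare peptides for MHC class I. In the liver, hepatocytes and resident macrophages are both able to respond.

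The ISRE is a direct repeat, searched here as GAAANNGAAA on both strands in RefSeq promoter windows of GRCm38.p6 that run from 250 bases before to 50 bases after each start. A window was held for 30 of the 40 genes, and 16 of these 30 held a match, against 3.99% of all genes with a window. The genes with no window were Dhx58, Zbp1, Mx1, Mx2, Oas2, Usp18, Parp9, Parp14, Nlrc5 and Rtp4. A match describes letters only. The antioxidant response element bound by NRF2, searched as TGACNNNGC, was matched in 4 of the 30 (Ifi44, Oasl2, Irf7 and Rsad2), against 14.0% of all genes. The sequences below are shown because they set genes with dense ISRE matches (Isg15, Ifit1, Ifit3) beside Ifi35 and Ddx58, whose upstream stretch holds none and which moved in opposite directions. Capitals mark ISRE matches, and each is written 5′ to 3′ on the strand of its gene.
Isg15, chr4:156200819-156200968, minus strand: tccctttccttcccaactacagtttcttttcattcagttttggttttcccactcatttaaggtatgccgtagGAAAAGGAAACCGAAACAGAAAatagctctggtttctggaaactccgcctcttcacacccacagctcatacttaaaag
Ifit1, chr19:34640739-34640888, plus strand: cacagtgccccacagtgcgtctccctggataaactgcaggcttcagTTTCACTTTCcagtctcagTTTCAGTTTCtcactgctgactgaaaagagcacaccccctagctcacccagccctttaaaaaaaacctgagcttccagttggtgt
Ifit3, chr19:34583359-34583508, plus strand: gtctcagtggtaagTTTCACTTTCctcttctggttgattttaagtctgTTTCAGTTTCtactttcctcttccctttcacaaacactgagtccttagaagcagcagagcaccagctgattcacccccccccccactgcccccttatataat
Ifi35, chr11:101448262-101448411, plus strand: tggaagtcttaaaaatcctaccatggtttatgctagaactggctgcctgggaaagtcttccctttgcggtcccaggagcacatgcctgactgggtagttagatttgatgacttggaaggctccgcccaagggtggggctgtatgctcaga
Ddx58, chr4:40239826-40239975, minus strand: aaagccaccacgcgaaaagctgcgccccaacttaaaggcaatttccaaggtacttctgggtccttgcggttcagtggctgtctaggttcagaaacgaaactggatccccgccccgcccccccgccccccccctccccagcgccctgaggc
Ifitm3, the first 30 transcribed bases, chr7:141010715-141010744, minus strand: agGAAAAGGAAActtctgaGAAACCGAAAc

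The stretch of Isg15 holds 3 overlapping matches, which begin 78, 72 and 66 bases before the start. Ifit1 and Ifit3 each hold 2 separate ones. Ifitm3 holds its 2 matches just after the start, and Ddx58 has a match that begins at base 3 of the transcript, outside the stretch shown. All these positions count from the RefSeq start, which can differ from the GENCODE one. The GENCODE gene of Ifitm3 starts further upstream, at 141010770, so its 30 bases are the first transcribed ones by RefSeq only.

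Between 6333025 and 12008223 reads fell on genes per library of the first table, and between 17819333 and 20848578 per library of the second. Levels are normalised read counts as the authors scaled them, within a table only, with the 1 that the first table adds to every value removed. Changes are log2 fold changes on log2 of the deposited value plus 1, which understates the change of low genes, and were called at an adjusted p under 0.05 (limma, Benjamini-Hochberg over all genes tested). The edited genes were read first. Cul3 had 163, 426 and 676 normalised reads in sgCul3 tumours, against 935 to 1372 in sgGFP tumours (log2 fold change -1.70, limma adjusted p = 0.051). Keap1 had 287 to 462 in sgKeap1 tumours, against 582 to 721 in sgGFP tumours (-0.77, limma adjusted p = 0.048). Nfe2l2, the gene of NRF2, had 1486 and 1615 in sgNrf2 tumours, against 1844 and 1397 in controls (-0.05, limma adjusted p = 0.89), and since the guide targets 1 motif this level does not check the edit. Of 8 NRF2 target genes, 7 were called higher in sgCul3, 8 in sgKeap1 and 7 in sgNrf2. Tumour 2 of sgKeap1 stood apart. Its 10 most abundant genes took 24.5% of its reads, and its summed hepatocyte markers came to 1168740 normalised reads, against 101286 to 325058 in the other 9 tumours of the table. Albumin (Alb) alone gave 1046670 of this sum. Hnf4a, another of these markers, had 2960 there, within the 2648 to 6488 of the other tumours.

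At baseline the 40 genes spanned a wide range of levels per length. In sgGFP tumours, Bst2 (tetherin, which holds budding virus at the cell surface) averaged 126 ± 31.9 RPKM (reads scaled by exon length and library size) and Ifitm3 (which blocks viral entry at the endosome) 63.6 ± 19.6 (SD, n = 4). Isg15, the ubiquitin-like modifier, averaged 8.38 ± 3.07 on this scale, and Ifit1, which binds foreign RNA, 0.731 ± 0.420. Ifi44 was the lowest of the 40, at 0.107 ± 0.0462.

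Mx1 was the member with the largest change. It encodes a dynamin-like GTPase that traps viral nucleoproteins, and many laboratory mouse strains carry a defective copy. It lies on chromosome 16 (GRCm38, 97447035 to 97462907, minus strand), next to Mx2. Mx1 had 474, 232 and 54.0 normalised reads in the sgCul3 tumours (numbers 1 to 3) and 208, 365 and 417 in the sgKeap1 tumours (1 to 3), against 12.1, 25.3, 5.31 and 5.37 in the sgGFP tumours (1 to 4). Every guide tumour was above every sgGFP tumour. In the second table it had 941 and 636 normalised reads in sgNrf2 tumours A and B, against 43.1 and 6.33 in controls A and B, again without overlap. Log2 fold changes were 3.94 ± 0.68 in sgCul3 (SE, limma adjusted p = 0.018), 4.73 ± 0.68 in sgKeap1 (adjusted p = 0.0028) and 5.43 ± 0.90 in sgNrf2 (adjusted p = 0.047). The sgKeap1 call held in every alternative run. The sgCul3 call was lost without sgGFP tumour 3, sgCul3 tumour 1 or sgCul3 tumour 2, each left out in turn (adjusted p = 0.057 to 0.082). The sgNrf2 call was lost without sgNrf2 tumour A or B (adjusted p = 0.12 to 0.15) and with edgeR (adjusted p = 0.054).

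Mx2, its neighbour 72400 bases away on the other strand, which encodes a related GTPase, went the other way in value but was not called by limma. It had 27.6, 39.9 and 36.7 normalised reads in sgCul3, 25.3, 56.8 and 40.4 in sgKeap1, and 25.0, 55.2, 70.0 and 132 in sgGFP tumours, which overlap. In the second table Mx2 had 57.5 and 67.3 normalised reads in sgNrf2 tumours, against 134 and 286 in controls, with no overlap. Its log2 fold change was -0.77 in sgCul3, -0.60 in sgKeap1 and -1.64 in sgNrf2 (limma adjusted p = 0.46, 0.44 and 0.11). DESeq2, and limma without control A, called it lower in sgNrf2.

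**Figure D1:**
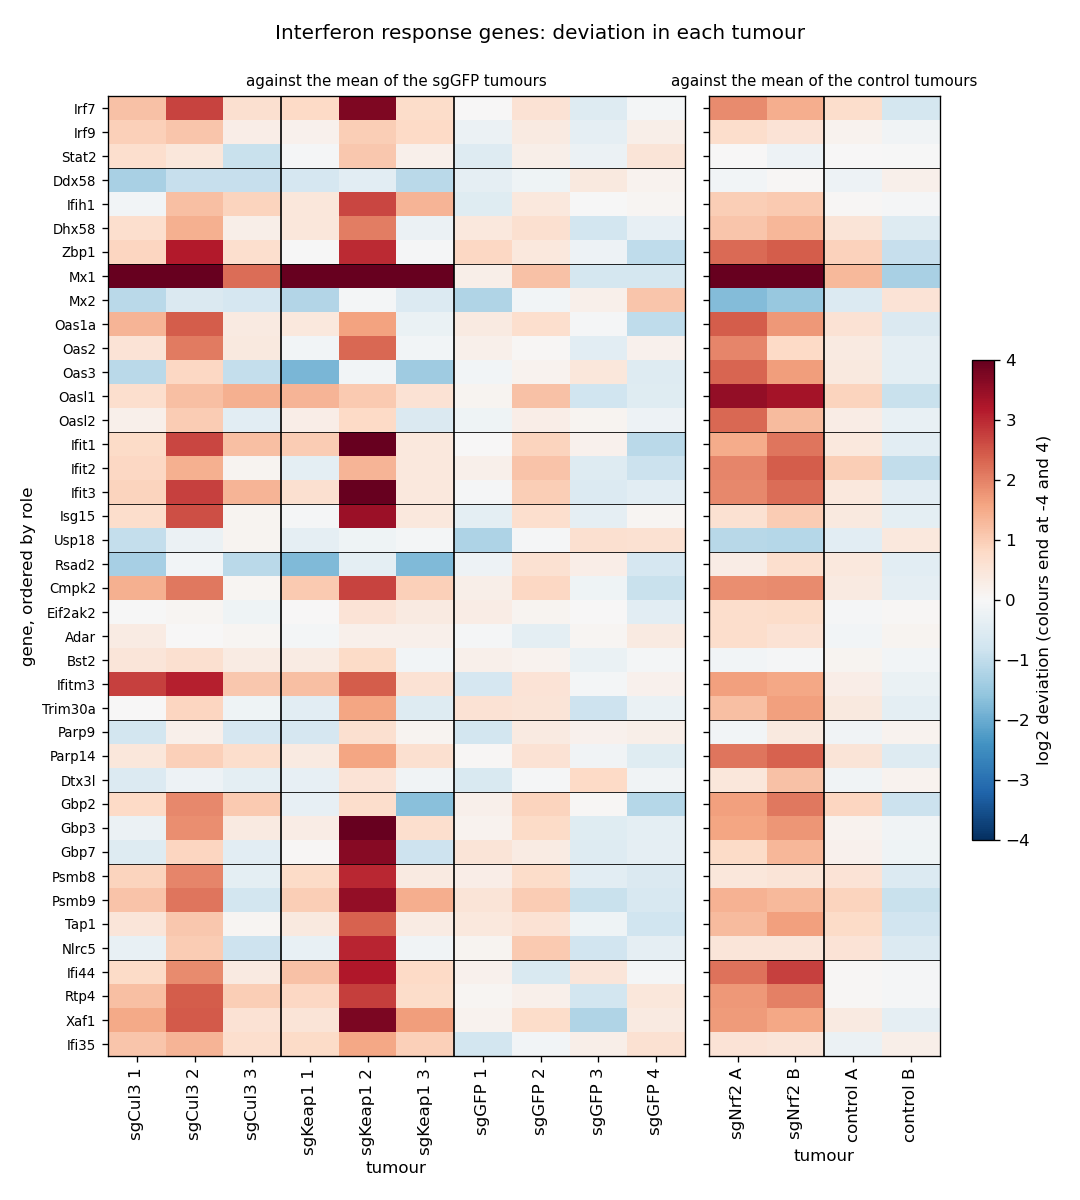
Log2 deviation of each of the 40 genes (rows, grouped by role) from the mean of the control tumours, in each tumour (columns), for the first table (left) and the second (right). Colours end at -4 and 4. Mx1 is dark red in every guide tumour but sgCul3 tumour 3, where it stood at 2.22, and the column of sgKeap1 tumour 2 is the reddest of the first table.

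The sgCul3 tumours were compared with sgGFP tumours to ask how the genes stand when the ligase scaffold is edited. Of the 40 genes, 2 were called higher and 0 lower, where 1.35% of all genes tested were called higher and 0.851% lower. The called genes were Mx1 and Ifitm3. At an unadjusted p under 0.05, 6 were higher and 1 lower, where 9.07% and 8.11% of all genes were. The groups did not overlap at 7 genes that were higher (Irf7, Mx1, Oas2, Bst2, Ifitm3, Rtp4 and Ifi35) and at 1 that was lower (Ddx58), where 8.71% of all genes did so upward and 7.54% downward. The median log2 fold change was 0.78 over the 40 genes and 0.01 over all genes, and 30 of the 40 lay above 0, as did 51.1% of all genes. By edgeR 2 were higher and 0 lower (1.3% and 0.59% of all genes), by DESeq2 2 and 1 (3.67% and 3.43%), and with the tumour number as a replicate block 2 and 0 (1.12% and 0.659%).

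Ifitm3 had 2553, 3315 and 819 normalised reads in the sgCul3 tumours and 883, 2068 and 576 in the sgKeap1 tumours, against 241, 569, 368 and 435 in sgGFP tumours 1 to 4. All 6 guide tumours stood above the sgGFP tumours, with sgKeap1 tumour 3 just above the highest of them. The gene lies on chromosome 7 (141009586 to 141010770) and belongs to a family of similar copies, so that reads may be split between them. Its log2 fold change was 2.30 ± 0.52 in sgCul3 (limma adjusted p = 0.049) and 1.40 ± 0.52 in sgKeap1 (limma adjusted p = 0.11), where DESeq2 and the replicate block called it. The sgCul3 call is narrow. It was lost without any 1 of the 4 sgGFP tumours and without sgCul3 tumour 1 or 2 (adjusted p = 0.077 to 0.21), and when the 2 groups were fitted alone (adjusted p = 0.062).

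Ddx58, the gene of the RNA sensor RIG-I, was the member with the clearest lower values. It had 126, 165 and 163 normalised reads in the sgCul3 tumours and 197, 235 and 149 in the sgKeap1 tumours, against 244, 277, 415 and 343 in sgGFP tumours 1 to 4. The highest sgKeap1 tumour and the lowest sgGFP tumour were close. On the log2 scale the difference was -1.05 ± 0.25 in sgCul3 (limma adjusted p = 0.058) and -0.71 ± 0.25 in sgKeap1 (limma adjusted p = 0.094). In sgCul3 it was called lower with quantile normalization (limma adjusted p = 0.046) and by DESeq2 (adjusted p = 0.0034). In the second table Ddx58 had 613 and 683 normalised reads in sgNrf2 tumours, against 568 and 768 in controls, and its log2 fold change was -0.03 ± 0.24 (limma adjusted p = 0.94).

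Ifi35, whose product binds the interferon-induced protein NMI, had 517, 622 and 383 normalised reads in sgCul3 tumours and 409, 697 and 463 in sgKeap1 tumours, against 143, 223, 281 and 365 in sgGFP tumours. Rtp4, a receptor transporter protein induced by interferon, had 66.3, 157 and 57.1 normalised reads in sgCul3 tumours and 50.7, 201 and 47.6 in sgKeap1 tumours, against 29.0, 32.2, 15.9 and 38.5 in sgGFP tumours. Neither gene overlapped between guide and sgGFP tumours, and both had their highest value in sgKeap1 tumour 2. Ifi35 had a log2 fold change of 1.05 ± 0.32 in sgCul3 and 1.08 ± 0.32 in sgKeap1 (limma adjusted p = 0.13 and 0.062). Rtp4 gave 1.54 ± 0.55 in sgCul3 and 1.45 ± 0.55 in sgKeap1 (limma adjusted p = 0.18 and 0.11). In sgKeap1 DESeq2 and the replicate block called both genes, Ifi35 with an adjusted p of 0.024 and 0.023, and limma called Ifi35 without sgGFP tumour 4 (adjusted p = 0.041). Reads of Ifi35 and Rtp4 may include those of Gm11626 and Gm45338, predicted genes that overlap their exons.

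The sgKeap1 tumours were compared with the same 4 sgGFP tumours. Of the 40 genes, 1 was called higher (Mx1) and 0 lower, where 4.45% of all genes were called higher and 3.37% lower. At an unadjusted p under 0.05, 12 were higher and 2 lower, where 14.9% and 14.3% of all genes were. The groups did not overlap at 8 genes that were higher (Irf7, Ifih1, Mx1, Cmpk2, Ifitm3, Ifi44, Rtp4 and Ifi35) and at 1 that was lower (Ddx58), where 13.1% and 12.6% of all genes did so. The median log2 fold change was 0.87 over the 40 genes and -0.01 over all genes, and 34 of the 40 lay above 0, as did 49.5% of all genes. By edgeR 1 was higher and 0 lower (4.68% and 2.68% of all genes), by DESeq2 11 and 0 (9.05% and 7.37%), and with the replicate block 8 and 1 (7.47% and 6.16%). This median fell to 0.19 without sgKeap1 tumour 2, and 26 of 39 genes that then passed the filter lay above 0.

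After Mx1, the smallest adjusted p in sgKeap1 belonged to Ifi35, Ifih1, Ddx58 and Rsad2. Ifih1, the gene of the long-RNA sensor MDA5, had 160, 756 and 302 normalised reads in the sgKeap1 tumours, against 83.0, 157, 116 and 124 in sgGFP tumours. The groups met without overlapping, since the lowest sgKeap1 tumour stood just above the highest sgGFP tumour. Its log2 fold change was 1.49 ± 0.48 (limma adjusted p = 0.078), and it was called by DESeq2, with the replicate block and without sgKeap1 tumour 1 (adjusted p = 0.0062 to 0.027). Rsad2 encodes viperin, which makes a chain-terminating nucleotide, and it had 24.5, 66.9 and 24.5 normalised reads in sgKeap1 tumours, against 76.9, 137, 107 and 54.6 in sgGFP tumours. These overlap, and the log2 fold change was -1.32 ± 0.46 (limma adjusted p = 0.096), called lower with the replicate block (adjusted p = 0.019). Cmpk2, the kinase gene 12751 bases from Rsad2, stood at 1.56 on this scale in the same tumours (limma adjusted p = 0.13), so that these neighbours had values on opposite sides of 0.

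With the guide tumours of both genes pooled against sgGFP, 3 genes were called higher (Mx1, Ifitm3 and Ifi35) and 1 lower (Ddx58), where 4.37% and 3.19% of all genes were. At an unadjusted p under 0.05 it was 14 and 2 (14.2% and 12.8% of all genes), and without overlap 5 and 1 (5.13% and 4.1%). The median log2 fold change was 0.78, with 33 of 40 above 0 (49.8% of all genes). On the log2 scale Mx1 differed by 4.33 ± 0.58 (limma adjusted p = 0.0018), Ifitm3 1.85 ± 0.44 (0.031), Ifi35 1.07 ± 0.27 (0.039) and Ddx58 -0.88 ± 0.21 (0.031). Mx1 kept its call with each tumour left out. Ifitm3 lost it without sgGFP tumour 1, 3 or 4 or sgCul3 tumour 1 or 2 (adjusted p = 0.057 to 0.091). Ddx58 lost it without sgGFP tumour 2, 3 or 4, sgCul3 tumour 1 or 2 or sgKeap1 tumour 3 (adjusted p = 0.053 to 0.11), and with the tumour number as a replicate block (adjusted p = 0.061). Ifi35 lost it without sgGFP tumour 1, 2 or 3, sgCul3 tumour 1 or 2 or sgKeap1 tumour 2 or 3 (adjusted p = 0.071 to 0.087). The block gave 7 higher and 1 lower (5.28% and 4.01% of all genes), edgeR 3 and 1 (4.16% and 3.63%) and DESeq2 10 and 1 (8.47% and 7.26%).

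Set directly against each other, sgKeap1 and sgCul3 tumours differed at 0 of the 40 genes by limma, edgeR and DESeq2, where limma called 0.0307% of all genes in each direction. edgeR called 0.023% of all genes each way, DESeq2 0.491% higher and 0.307% lower, and limma with the replicate block 0.0383% and 0.0307%. At an unadjusted limma p under 0.05, 0 were higher and 1 was lower in sgKeap1 (4.86% and 5.22% of all genes), and 24 of 40 lay above 0 (49.8% of all genes). That gene was Gbp2, an interferon-induced guanylate-binding protein of the cell's defence against vacuolar pathogens. It had 13.9, 30.4 and 4.33 normalised reads in sgKeap1 tumours, against 33.2, 74.4 and 39.1 in sgCul3 tumours, a difference of -1.69 ± 0.66 on the log2 scale (limma adjusted p = 0.46). It alone did not overlap between these groups, where 7.52% of all genes stood apart upward and 8.24% downward. The median over the 40 genes was 0.16. Differences that miss the threshold do not show that the guides act alike.

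The sgNrf2 tumours were compared with controls A and B, 2 libraries against 2. Of the 40 genes, 3 were called higher (Mx1, Ifitm3 and Rtp4) and 0 lower, where 1.9% of all genes were called higher and 2.51% lower. At an unadjusted p under 0.05, 24 were higher and 2 lower, where 15.2% and 15.1% of all genes were. The groups did not overlap at 31 genes that were higher and at 2 that were lower (Mx2 and Usp18), where 33.3% and 30.7% of all genes did so. The median log2 fold change was 1.40 over the 40 genes and 0.04 over all genes, and 35 of the 40 lay above 0, as did 52.1% of all genes. By edgeR 0 were called either way (1.29% and 2.03% of all genes), by DESeq2 13 higher and 2 lower (8.44% and 10.4%), and with the replicate block 4 and 0 (2.14% and 2.74%). The count of called genes depended on which library was left out. Over all genes, calls also rose without either control, most without control A, and fell without either sgNrf2 tumour. Such fits leave 1 library in a group, so their counts over all genes are not given. That limits what a call gained or lost in these fits says of a gene. The median over the 40 genes ranged between 0.98 and 1.81.

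Ifitm3 had 2942 and 2734 normalised reads in sgNrf2 tumours A and B, against 1132 and 775 in controls A and B. Rtp4 had 243 and 296 normalised reads in sgNrf2 tumours, against 75.5 and 69.6 in controls. In both genes the groups stood well apart and the replicates close together. The log2 fold change of Ifitm3 was 1.60 ± 0.25 (limma adjusted p = 0.044) and that of Rtp4 was 1.87 ± 0.32 (limma adjusted p = 0.047). Ifitm3 lost its call without sgNrf2 tumour A or B (adjusted p = 0.18 to 0.22) and with edgeR (adjusted p = 0.052). Rtp4 lost it without sgNrf2 tumour A or B or control B (adjusted p = 0.054 to 0.33), with edgeR (adjusted p = 0.056) and with the replicate block (adjusted p = 0.062).

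The next smallest adjusted p in sgNrf2 belonged to Parp14 and Oasl1. Parp14, a mono-ADP-ribosyltransferase, had 642 and 750 normalised reads in sgNrf2 tumours, against 205 and 101 in controls, a difference of 2.26 ± 0.40 on the log2 scale (limma adjusted p = 0.052). Oasl1, an OAS-like protein that in the mouse restrains translation of Irf7, had 629 and 559 normalised reads in sgNrf2 tumours, against 101 and 29.1 in controls. Its log2 fold change was 3.42 ± 0.63 (limma adjusted p = 0.054), the largest of the 40 after Mx1. Both were called by DESeq2 and by limma with quantile normalization, equal totals, the replicate block, or either control left out (adjusted p = 8.1e-05 to 0.049 for Parp14 and 1.1e-05 to 0.046 for Oasl1). In the first table Oasl1 had 40.1, 59.4 and 68.8 normalised reads in sgCul3 tumours and 67.0, 52.7 and 37.5 in sgKeap1 tumours, against 27.0, 57.5, 13.3 and 17.0 in sgGFP tumours, with overlap. Its log2 fold change there was 1.09 in sgCul3 (limma adjusted p = 0.26).

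**Figure D2:**
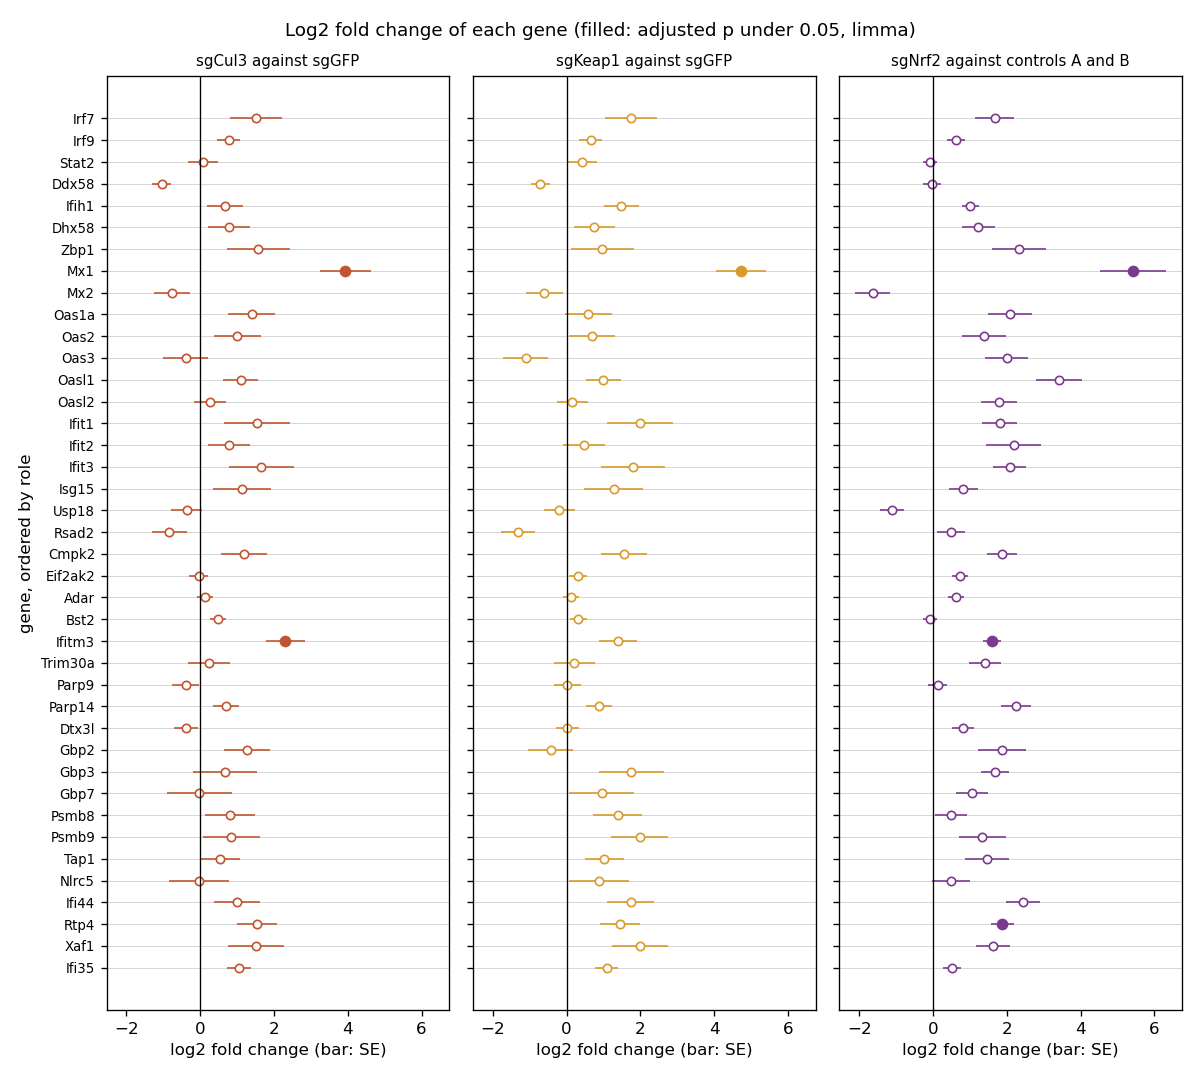
Log2 fold change of each of the 40 genes with its standard error, in sgCul3 and sgKeap1 against sgGFP and in sgNrf2 against controls A and B. Filled points have an adjusted p under 0.05 (limma), which are Mx1 in all panels, Ifitm3 in those of sgCul3 and sgNrf2, and Rtp4 in that of sgNrf2.

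Among the regulators, Irf7 had higher values than its controls in every guide tumour but was called by limma, as fitted here, in none of the comparisons. Irf7, the factor that amplifies interferon production, had 144, 415 and 98.5 normalised reads in sgCul3 tumours and 109, 853 and 104 in sgKeap1 tumours, against 63.4, 92.8, 42.5 and 59.1 in sgGFP tumours. It had 437 and 326 normalised reads in sgNrf2 tumours, against 191 and 72.1 in controls. In each table the groups did not overlap, although 3 of the 6 sgCul3 and sgKeap1 tumours stood only a little above the highest sgGFP tumour. Irf7 gave log2 fold changes of 1.51 ± 0.71 in sgCul3, 1.75 ± 0.71 in sgKeap1 and 1.68 ± 0.53 in sgNrf2 (limma adjusted p = 0.30, 0.13 and 0.12). DESeq2 and the replicate block called it higher in sgKeap1 (adjusted p = 0.0066 and 0.034) and with both guides together (0.0057 and 0.033). Without control A limma called it in sgNrf2 (adjusted p = 0.028).

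Irf9, the DNA-binding part of ISGF3, had 206, 229 and 126 normalised reads in sgCul3 tumours and 118, 211 and 185 in sgKeap1 tumours, against 89.1, 136, 81.5 and 123 in sgGFP tumours. It had 476 and 421 normalised reads in sgNrf2 tumours, against 318 and 266 in controls. The first table overlapped and the second did not, and the log2 fold change was 0.78, 0.65 and 0.62 in sgCul3, sgKeap1 and sgNrf2 (limma adjusted p = 0.23, 0.18 and 0.17). Stat2, another part of ISGF3, had values above, within and below the range of its controls. It had 593, 504 and 196 normalised reads in sgCul3 tumours and 355, 774 and 426 in sgKeap1 tumours, against 256, 433, 310 and 529 in sgGFP tumours, and 1001 and 872 in sgNrf2 tumours, against 998 and 992 in controls. The log2 fold change of Stat2 was 0.08, 0.41 and -0.09 in the same order of guides (limma adjusted p = 0.94, 0.53 and 0.77).

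Isg15 had 92.6, 345 and 61.0 normalised reads in sgCul3 tumours and 53.9, 624 and 76.5 in sgKeap1 tumours, against 42.5, 89.8, 43.4 and 59.1 in sgGFP tumours. It had 211 and 284 normalised reads in sgNrf2 tumours, against 181 and 106 in controls. The high values in the first table were those of the tumours numbered 2, and the remaining ones mostly lay within the range of sgGFP. The log2 fold change was 1.13 ± 0.79 in sgCul3, 1.27 ± 0.79 in sgKeap1 and 0.82 ± 0.39 in sgNrf2 (limma adjusted p = 0.51, 0.30 and 0.23), and DESeq2 called it in sgKeap1 (adjusted p = 0.043). Usp18, the protease that removes ISG15 and restrains the receptor, gave log2 fold changes of -0.36, -0.20 and -1.12 in the same order (limma adjusted p = 0.71, 0.78 and 0.11). It had 607 and 601 normalised reads in sgNrf2 tumours, against 976 and 1768 in controls, so that the modifier and its protease had values on opposite sides of 0 there. DESeq2, and limma without control A, called Usp18 lower in sgNrf2.

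**Figure D3:**
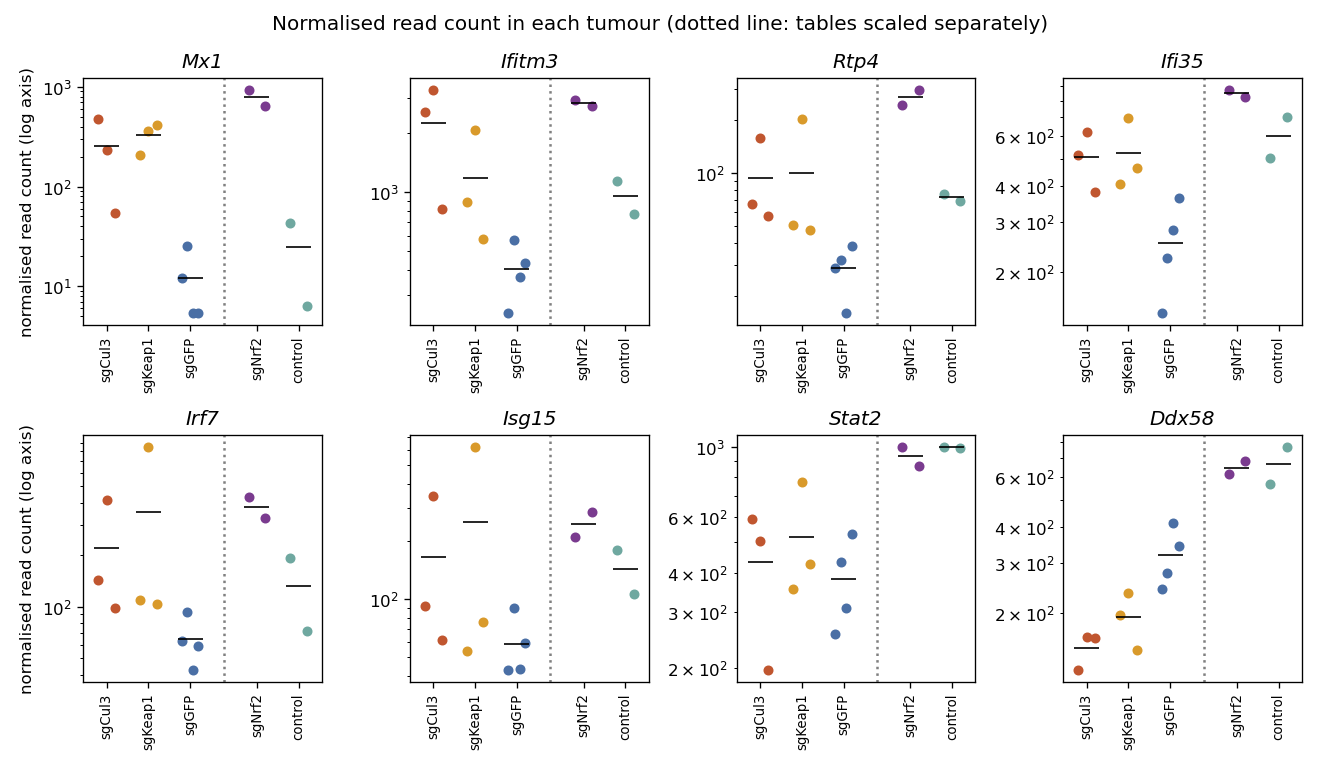
Normalised read count of 8 genes in each tumour (points, log axis) with the group mean (bar), for sgCul3, sgKeap1 and sgGFP in the first table and sgNrf2 and control in the second. The guide groups of Mx1 lie wholly above their controls, those of Ddx58 lie below sgGFP in the first table only, and Irf7 and Isg15 have their highest point of the first table in sgKeap1 tumour 2.

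The remaining effector genes were called by limma in no comparison. DESeq2 called Ifi44, Xaf1, Psmb8 and Psmb9 in sgKeap1, and Ifi44, Ifit1, Ifit3, Cmpk2, Gbp3, Oas1a and Oasl2 in sgNrf2, where the adjusted p was 0.0048 for Ifi44 and 0.0064 for Ifit3. The replicate block called Xaf1 and Psmb9 in sgKeap1. The 3 IFIT genes, whose products bind foreign RNA, had median log2 fold changes of 1.54 in sgCul3, 1.80 in sgKeap1 and 2.08 in sgNrf2. The 7 genes of the dynamin and OAS group, of which the OAS proteins activate RNase L, had medians of 1.01, 0.58 and 1.99. The 4 genes of antigen processing (the immunoproteasome subunits Psmb8 and Psmb9, the peptide transporter Tap1 and the MHC class I activator Nlrc5) had medians of 0.68, 1.20 and 0.91. The 3 guanylate-binding proteins had medians of 0.67, 0.95 and 1.67. The 3 genes of ADP-ribosylation had medians of -0.39, 0.02 and 0.81. In the first table most of these medians were lower without the tumours numbered 2. Without sgKeap1 tumour 2, the sgKeap1 median was 0.52 for the IFIT genes, -0.02 for the dynamin and OAS genes that still passed the filter, 0.46 for antigen processing, -0.40 for the guanylate-binding proteins and -0.24 for ADP-ribosylation. Without sgCul3 tumour 2, the sgCul3 medians were 0.98, 0.67, 0.22, 0.07 and -0.47 in that order of groups. Without control B, the sgNrf2 medians were 1.39 for the IFIT genes, 1.03 for the guanylate-binding proteins and 0.20 for antigen processing. Dtx3l and Parp9 share 458 bases of exon on opposite strands, and Psmb9 and Tap1 share 212. The counting is not stated to use strand, so reads of these partners cannot be told apart.

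Deviations were uneven over the tumours of a group. The median log2 deviation of the 40 genes from the sgGFP mean was 0.67, 1.29 and 0.18 in the sgCul3 tumours and 0.27, 1.82 and 0.34 in the sgKeap1 tumours, against 0.08, 0.54, -0.20 and -0.30 in the sgGFP tumours. Thus 3 of the 6 guide tumours had a median below that of sgGFP tumour 2. In the second table it was 1.33 and 1.34 in sgNrf2 tumours A and B, against 0.37 and -0.37 in controls A and B. The median over all genes lay between -0.01 and 0.05 in every library.

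Tumour 2 of sgKeap1 was the highest of the 10 tumours at 24 of the 40 genes, and tumour 2 of sgCul3 at 8. In sgKeap1 tumour 2 Gbp7 stood 7.21 times above the next highest tumour, Gbp3 5.53 times, Nlrc5 4.19 times, Ifit1 3.68 times and Ifit3 3.15 times. Mx1 did not follow this order, since its highest value was in sgCul3 tumour 1, and it stood at 417 normalised reads in sgKeap1 tumour 3, whose median was low. Without both tumours numbered 2, an alternative chosen after their values were seen, the median log2 fold change was 0.15 in sgKeap1 and 0.29 with both guides together. Mx1 in sgKeap1 was still called.

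**Figure D4:**
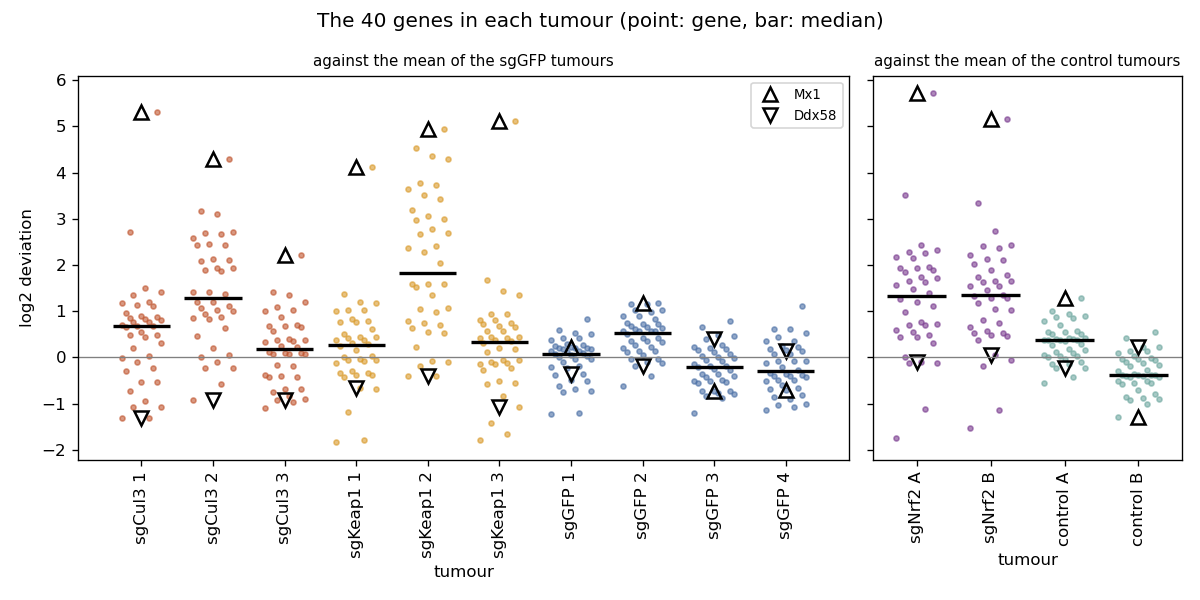
Log2 deviation of the 40 genes (points) from the control mean in each tumour, with their median (bar), Mx1 (triangle up) and Ddx58 (triangle down). The bars of sgKeap1 tumour 2 (1.82), sgCul3 tumour 2 (1.29) and both sgNrf2 tumours are the highest, while Mx1 is high in all guide tumours.

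Markers of several cell types were read beside this pattern, and their part in it was not tested. In bulk tumours, fewer cells of a type and less RNA per cell cannot be told apart. Albumin (Alb), named after its values were seen, had 1046670 normalised reads in sgKeap1 tumour 2, against 27498 to 162273 in the other 9 tumours of the first table. This is the gene that makes up most of the hepatocyte sum given above for that tumour. Clec4f, a marker of resident liver macrophages also named after its values were seen, had 880 normalised reads in sgKeap1 tumour 2 and 591 in sgCul3 tumour 2, against 1.38 to 106 in the other 8 tumours. Its values were thus high in the same pair of tumours. Adgre1, another macrophage marker named after its values were seen, had 332 in sgKeap1 tumour 2 and 181 in sgCul3 tumour 2. The other 8 tumours had 18.8 to 141. The summed 12 macrophage markers were 2610 to 4650 in sgKeap1 and 3317 to 5864 in sgCul3, against 1527 to 8997 in sgGFP. In this sum sgKeap1 tumour 2 and sgCul3 tumour 2 were each the highest of their guide group, within the range of sgGFP. The summed 6 leukocyte markers were 1859 to 2281 in sgCul3 and 1274 to 2305 in sgKeap1, against 618 to 2993 in sgGFP. Neither guide tumour numbered 2 was the highest of its group in this sum. Ptprc, 1 of the 6, had 292 in sgKeap1 tumour 2 and 247 in sgCul3 tumour 2, against 52.8 to 219 in the other 8 tumours. Dendritic cell markers (8 of 9 in the table) summed to 1027, 1046 and 437 in sgCul3 and 539, 920 and 418 in sgKeap1, against 244 to 727 in sgGFP. Both guide tumours numbered 2, and sgCul3 tumour 1, were above every sgGFP tumour in this sum. Of 15 markers of T, NK and B cells, 13 were in the table and summed to 44.6 to 104 in sgCul3 and 21.6 to 144 in sgKeap1, against 46.5 to 79.0 in sgGFP. The highest of these was sgKeap1 tumour 2, in which Cd3e, which defines T cells, was at 0 (3 reads, the limit a count of 0 allows, are 0.461 CPM there, for counting error only). Neutrophil markers summed to 191 to 273 in sgKeap1 and 177 to 3043 in sgCul3, against 897 to 5328 in sgGFP, and 9 of 12 were called lower in sgKeap1 and 0 of 12 in sgCul3 by limma. Erythroid markers summed to 1981 to 2185 in sgKeap1 and 429 to 11325 in sgCul3, against 4999 to 15093 in sgGFP, and 4 of 9 were called lower in sgKeap1 and 2 of 9 in sgCul3. Plasmacytoid dendritic cells, which make much interferon, were read by 2 of 4 markers, which summed to 2.76 to 9.75 in sgCul3 and 1.44 to 8.11 in sgKeap1, against 4.72 to 31.3 in sgGFP. Siglech, 1 of these 2, had 0.782 to 2.76 in sgCul3 and 0 to 8.11 in sgKeap1, against 0.767 to 2.66 in sgGFP. Its highest value was in sgKeap1 tumour 2, and all its values are a few reads.

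In the second table the summed leukocyte markers were 9145 and 7583 normalised reads in sgNrf2 tumours A and B, against 5895 and 1311 in controls A and B. The 9 dendritic cell markers summed to 4331 and 3836, against 1595 and 521, with Xcr1 at 0 in control B. The T, NK and B cell markers summed to 308 and 370 in sgNrf2, against 204 and 106 in controls. These were higher in both sgNrf2 tumours, in the same direction as most of the 40 genes, and control B had the lowest sum of each, being also the lowest of 4 libraries at 30 of the 40 genes. The macrophage markers overlapped, at 10105 and 12221 in sgNrf2, against 16827 and 2950 in controls. Neutrophil markers summed to 264 and 676 in sgNrf2, against 11325 and 5442 in controls, and erythroid markers to 992 and 2025, against 17404 and 19340. Clec4f had 1.62 and 0.874 normalised reads in sgNrf2 tumours A and B, against 60.4 and 167 in controls A and B, lower where most of the 40 genes were higher. The part of these differences in the interferon genes was not tested.

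Upstream of the 40 genes, the interferon genes themselves were not analysed here. Of the genes of the receptors and their signalling, 0 were called in sgCul3 by limma (6 higher and 0 lower of 13 tested at an unadjusted p under 0.05). The interferon gamma receptor gene Ifngr1 stood 0.58 higher on the log2 scale with both guides together (limma adjusted p = 0.049), a call lost without any 1 tumour but sgGFP tumour 2, and with no filter, quantile normalization, equal totals, edgeR or the replicate block (adjusted p = 0.055 to 0.20). Ifnar1, Ifnar2, Jak1 and Tyk2 were called by limma in no comparison (Tyk2 was called higher in sgNrf2 without control A), with log2 fold changes of 0.25, 0.29, 0.08 and 0.14 in sgCul3.

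Of 20 genes that lead to interferon production, 18 were tested in the first table, and 1 was called. Mavs, the adaptor that RIG-I and MDA5 signal through, had 254, 195 and 225 normalised reads in sgKeap1 tumours, against 478, 505, 694 and 459 in sgGFP tumours. The groups did not overlap, and the log2 fold change was -1.23 (limma adjusted p = 0.023), a call lost without sgGFP tumour 3 or sgKeap1 tumour 2 or 3 (adjusted p = 0.071 to 0.091). In sgNrf2 Mavs had 1266 and 1273 normalised reads, against 1001 and 926 in controls, where it was not called.

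Further interferon-induced genes, 72 on a list beside the 40, gave few calls. Of the 58 tested in the first table, 0 were called in sgCul3 by limma (7 higher and 2 lower at an unadjusted p under 0.05), 2 in sgKeap1 and 3 with both guides together. Their median log2 fold change was 0.25 in sgCul3, 0.33 in sgKeap1 and 1.13 in sgNrf2. Nmi, the partner of IFI35, had 145, 251 and 138 normalised reads in sgCul3 tumours and 160, 478 and 317 in sgKeap1 tumours, against 35.8, 100, 51.4 and 60.0 in sgGFP tumours. Oas1b, an OAS protein known in the mouse for resistance to flaviviruses, had 11.1, 19.5 and 9.38 normalised reads in sgCul3 tumours and 8.99, 32.4 and 15.9 in sgKeap1 tumours, against 1.35, 5.37, 0.886 and 0.895 in sgGFP tumours. In both genes every guide tumour was above every sgGFP tumour. In sgKeap1 the log2 fold change was 2.29 for Nmi (limma adjusted p = 0.011) and 2.32 for Oas1b (limma adjusted p = 0.033). Nmi lost its call without sgKeap1 tumour 3 (adjusted p = 0.055), and Oas1b without sgGFP tumour 1, 3 or 4 or sgKeap1 tumour 3 or with the 2 groups alone (adjusted p = 0.054 to 0.10). Cxcl10, a chemokine that draws T cells, was called only with both guides together (1.92, limma adjusted p = 0.043) and lost its call without any 1 tumour but sgGFP tumour 1 or 2 or sgCul3 tumour 3, and with equal totals, edgeR or the replicate block (adjusted p = 0.05 to 0.13).

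In sgNrf2, 4 of 65 tested genes of that list were called. Tdrd7, a tudor protein that restrains autophagy used by viruses, had 1041 and 1232 normalised reads in sgNrf2 tumours, against 440 and 468 in controls. Parp12 had 514 and 635, against 174 and 140, Ifi27 had 1272 and 1116, against 436 and 271, and Irgm2 had 724 and 780, against 212 and 119. The groups were apart in each. Their log2 fold changes were 1.32, 1.86, 1.79 and 2.23, and each lost its call without sgNrf2 tumour A or B (adjusted p = 0.19 to 0.30). Ifi27 and Irgm2 also lost it with edgeR (adjusted p = 0.052 to 0.054), and Tdrd7 with the replicate block (adjusted p = 0.055). Of 15 genes of MHC class I, Erap1 (1.08) and Tapbp (1.20), which trim and load peptides, were called in sgNrf2 and lost their calls the same way (adjusted p = 0.28 to 0.35) and with edgeR or the replicate block. Psme1, a proteasome activator subunit, was called with both guides together (1.08, limma adjusted p = 0.048), a call lost with any 1 tumour but sgCul3 tumour 3 left out.

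The repeated controls show how far 2 libraries of 1 tumour differed. Control A stood at a median log2 ratio of -0.03 to sgGFP tumour 2 over the 40 genes in CPM (counts scaled to equal library size), with a range of -0.87 at Oas3 to 1.33 at Ifi44. Control B stood at 0.01 to sgGFP tumour 4, with a range of -1.02 at Oas3 to 1.39 at Cmpk2. Because of these repeats, the sgNrf2 comparison shares its control tumours with the other comparisons, and sgCul3 and sgKeap1 share all 4 sgGFP tumours, so that the side-by-side values are not independent of each other.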

How the data were processed

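Total RNA was extracted with a Qiagen kit and sequenced from Illumina TruSeq libraries, per the labels. The deposited values are a signal: HTSeq read counts per gene that the authors scaled with DESeq, with Picard and mm10 also named, per the submitters' processing notes. Not given in the sources used here: tool versions, aligner, annotation and strand setting. The tables (10 and 4 libraries) were scaled separately and tested separately. Reads were recovered from the smallest step of each library, after removal of the 1 added to every value of the first table. All values (100%) came out whole to within 0.1 reads. On these reads edgeR called 246, 959, 1017, 6 and 465 genes in the comparisons of sgCul3, sgKeap1 and both with sgGFP, sgKeap1 with sgCul3, and sgNrf2 with controls. The second table holds 4 entries for reads of no gene, left out.

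Genes with a mean of at least 10 (13045 and 13989) were tested two-sided with limma 3.58.1 (R 4.3.3), using log2 of deposited values after adding a pseudocount of 1 and a trend of variance on mean. The spread was estimated over all 3 groups of the first table. The fit was tested on simulated data. Alternatives were a pseudocount of 5, the added 1 removed, no filter, a minimum mean of 50, equal totals, quantile normalization, DESeq2 1.42.0, edgeR 4.0.16, the tumour number as a block, 2 groups alone, and each library left out. The members and lists were chosen with earlier results of these data known. By rule, called members are described, or else the 5 with the smallest adjusted p, with Irf7, Irf9, Stat2 and Isg15 in any case, and from other lists the called genes with up to 4 more, and Ifnar1, Ifnar2, Jak1, Tyk2, Keap1, Cul3 and Nfe2l2 in any case. Some results these rules would name are not reported here. Gene positions are GENCODE M21 on GRCm38.

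What the tumour numbers mean is not stated. Deviations from the group mean correlated weakly between same-numbered sgCul3 and sgGFP tumours (0.164, 0.175 and 0.314). Tumours with different numbers were not compared, so these values do not show a pairing. The limma fit reported here uses none, and the tumour number as a block is an alternative only. The block takes sgGFP tumour 4 out, since no guide tumour has that number.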

Additional observations from a re-analysis of the deposited data

Results flagged for a closer look

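Each of these genes lay on one side of the mean of its own controls in every tumour of a ligase guide, and on the other side in both sgNrf2 tumours. Some log2 deviations were small, down to -0.10 for Oas3 in sgKeap1 and Rsad2 in sgCul3, and -0.05 for Bst2 in sgNrf2. The differences were not tested, since the tables were scaled separately, and the controls of both tables are in part the same tumours.

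Oas3, an OAS protein that activates RNase L, had 1.63, 10.1 and 2.89 normalised reads in sgKeap1 tumours, against 10.1, 12.3, 15.9 and 7.16 in sgGFP tumours, and 55.9 and 35.0 in sgNrf2 tumours, against 14.0 and 7.59 in controls. The mean log2 deviation of sgKeap1 lay below that of sgNrf2, with a difference of -3.11. The 2 lowest of these sgKeap1 values are a few reads. Oas3 was also the member with the lowest CPM ratio in both repeated controls (log2 -0.87 in control A and -1.02 in control B). Its control level was thus lower in the second table for the same tumours, which bears on this difference. Rsad2 (viperin) gave a difference of -1.32 between sgCul3 and sgNrf2 and of -1.80 between sgKeap1 and sgNrf2. It had 34.5, 82.4 and 40.7 normalised reads in sgCul3 tumours, and 224 and 286 in sgNrf2 tumours, against 239 and 135 in controls, which overlap. Dtx3l, a ubiquitin ligase that pairs with PARP9, gave a difference of -1.20 between sgCul3 and sgNrf2. It had 316 to 395 normalised reads in sgCul3 tumours, within the 298 to 796 of sgGFP tumours, and 1345 and 2232 in sgNrf2 tumours, against 893 to 1091 in controls. Bst2 gave a difference of 0.57 between sgCul3 and sgNrf2, with 1440, 1600 and 1294 normalised reads in sgCul3 tumours, against 1189, 1129, 856 and 967 in sgGFP tumours. In sgNrf2 tumours Bst2 had 1965 and 2044, against 2266 and 1988 in controls, which overlap.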

How the results depend on the processing

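Over 69 results for named genes, alternatives gave 1142 values, of which 938 kept direction and side of the threshold, 142 lost a call, 43 gained one and 19 changed sign. Equal totals moved the median of all genes by -0.20 in sgKeap1 and 0.34 in sgNrf2, so its values are read against that shift. Causes of the changes below were not tested.

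The count of called members in sgCul3 was 1 with the added 1 removed, with a mean of at least 50 and with the 2 groups alone, and 0 without both guide tumours numbered 2. In that order, 271 of 13045, 162 of 10336, 168 of 12950 and 194 of 12922 genes were called, where the fit reported here called 287 of 13045. In sgKeap1 the count of called members was 11 with DESeq2 and 9 with the replicate block (2143 and 1778 of all 13045 genes). With both guides together it was 11 with DESeq2 and 8 with the block (2052 and 1212 of all genes). In sgNrf2 the count was 5 with quantile normalization, 7 with equal totals, 0 with edgeR and 15 with DESeq2. In that order, 968, 1236, 465 and 2639 of all 13989 genes were called, where the fit reported here called 617. The block left the calls of sgCul3 as they were (Mx1 and Ifitm3). Correlations of same-numbered deviations were 0.199, 0.0425 and -0.0941 for sgKeap1 and sgGFP, and the block is not taken as a pairing there either. Between sgCul3 and sgKeap1 they were 0.239, 0.518 and 0.0980, the highest for the tumours numbered 2. Leaving out both tumours numbered 2, chosen after the data were seen, gave medians of 0.15 in sgKeap1 and 0.29 with both guides together. It also changed the sign of Stat2 in sgCul3 (-0.11) and with both guides (-0.012), and of Irf7 (-0.16) and Isg15 (-0.22) in sgKeap1 against sgCul3. Equal totals gave -0.10 for Isg15 in sgKeap1 against sgCul3 and 0.22 for Stat2 in sgNrf2. None of these values of Stat2, Irf7 or Isg15 was a call.

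With each library left out in turn, the count ranged between 0 and 2 in sgCul3, 1 and 3 in sgKeap1, 1 and 5 with both guides, and 0 and 23 in sgNrf2. It was 0 throughout in sgKeap1 against sgCul3. Calls over all genes ranged between 65 and 328 in sgCul3, 314 and 1502 in sgKeap1, and 395 and 1553 with both guides. The highest sgNrf2 count came without control A, where calls over all genes were also the most. That fit leaves 1 library in a group, so its count cannot be read as a result about the 40 genes alone. Medians ranged between 0.41 and 0.98 in sgCul3, 0.19 and 1.18 in sgKeap1, 0.57 and 0.99 with both guides, -0.24 and 0.44 in sgKeap1 against sgCul3, and 0.98 and 1.81 in sgNrf2. Log2 fold changes that changed sign ranged between -0.22 and 0.57 for Stat2 in sgCul3 and -0.19 and 0.0087 for Stat2 in sgNrf2. In sgKeap1 against sgCul3 they ranged between -0.76 and 0.83 for Irf7, -0.38 and 0.12 for Irf9, -0.16 and 0.63 for Stat2, and -0.94 and 0.86 for Isg15. A fit that leaves 1 library in a group of sgNrf2 or controls assumes that it varies like the other group. Depth limits members such as Oas3, Ifi44 and Zbp1, which had under 10 normalised reads in several tumours. In sgGFP tumours Ifi44, Oas1a and Zbp1 averaged 6.01, 8.23 and 8.62, so in the first table these passed the filter through their guide tumours.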
